A study of Mus musculus with 4 samples.

Results

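The genes described are the constitutive proteasome subunits and their activators, measured in the left ventricular free wall of mice with and without the voltage indicator VSFP2.3. They were chosen by name alone: gene symbols of the Psma, Psmb, Psmc and Psmd families with a number, and Psme1 to Psme4, leaving out the immunoproteasome subunits Psmb8, Psmb9 and Psmb10. This gave 40 of the 38355 genes in the count table. They comprise 8 genes of the alpha ring, 8 of the beta ring, 9 of the base, 8 of the lid, 3 chaperones of base assembly and 4 activators.

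The fluorescence of VSFP2.3 reports membrane voltage, and the stated purpose of the series was to find out whether the transgene is toxic to the heart. There were 2 transgenic mice (TG) and 2 wild-type mice (WT), 1 library each. TG 1 and WT 1 were males of 35 weeks and TG 2 and WT 2 were females of 19 weeks, so sex and age cannot be told apart. No mouse was treated, and all 4 carry the same parent label. The sources used here do not give the promoter that drives the transgene, the founder line or the strain. The TG and the WT mouse of the same sex and age are called a pair below.

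The proteasome degrades proteins that carry a ubiquitin tag. Its 20S core is a barrel of stacked rings, in which the outer alpha rings form the gate and the inner beta rings carry the proteolytic sites. A 19S cap, made of an ATPase base and a lid, recognises, deubiquitinates, unfolds and feeds in the substrate, while alternative caps, the activators, open the gate without ubiquitin. In heart muscle, where contractile proteins are turned over continuously, the proteasome is a main route of protein quality control. Interferon replaces the catalytic subunits of the beta ring with immunoproteasome forms and raises the activator PA28 alpha-beta, and loss of proteasome activity raises the subunit genes together through the transcription factor NRF1.

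Sequence bears on how far the read counts of several members can be trusted, because processed pseudogenes repeat their coding sequence. The first 60 coding bases of Psmb5, the chymotrypsin-like catalytic subunit, are shown beside those of Gm3375, a processed pseudogene on chromosome 7, with the differing base in capitals (GENCODE vM21 transcripts of GRCm38).
Psmb5: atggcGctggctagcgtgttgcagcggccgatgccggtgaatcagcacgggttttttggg
Gm3375: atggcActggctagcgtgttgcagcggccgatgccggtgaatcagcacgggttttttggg
Over the 795 coding bases of Psmb5, the copy was 99.0% identical. The start of the alpha-ring gene Psma5 and of its pseudogene Gm8394 on chromosome 10 is shown for the same reason, again with the differing base in capitals.
Psma5: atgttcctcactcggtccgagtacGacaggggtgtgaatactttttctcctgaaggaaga
Gm8394: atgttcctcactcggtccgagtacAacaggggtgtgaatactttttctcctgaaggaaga
The copy was 98.9% identical over 726 coding bases. Psme2, the beta subunit of PA28, has an intact copy, Psme2b, on chromosome 11, and coding bases 253 to 312 of both hold 1 difference.
Psme2: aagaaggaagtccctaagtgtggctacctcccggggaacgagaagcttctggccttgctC
Psme2b: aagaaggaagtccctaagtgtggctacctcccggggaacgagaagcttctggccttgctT
Both genes were 99.3% identical over 720 coding bases. To size this for every member, each transcript was split into overlapping windows of 50 bases, and a window was called shared when the same 50 bases occur in an annotated transcript at another locus. The share was 59.3% for Psme2, 55.8% for Psmb3, 54.5% for Psma5 and 50% for Psmb5. It was 26.4% for Psmd2, 25.6% for Psma4, 22% for Psma3, 18.9% for Psmd11, 17.6% for Psmc1 and 14.1% for Psme1. The other 30 members shared under 10% of their windows, and 21 of the 40 shared none.

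The promoters of 3 members are shown because interferon and NRF1 are known to act through short promoter elements, and because Psme1 and Psme2 were high in the same libraries, as described below. They are RefSeq sequences of GRCm38.p6, each running from 250 bases before the annotated gene start to 50 after it. In Psme1 (chr14:55578244-55578543, plus strand), capitals mark a match to the core of the interferon-stimulated response element (GAAA, any 2 bases, GAAA) on the opposite strand, which begins 9 bases after the gene start.
Psme1: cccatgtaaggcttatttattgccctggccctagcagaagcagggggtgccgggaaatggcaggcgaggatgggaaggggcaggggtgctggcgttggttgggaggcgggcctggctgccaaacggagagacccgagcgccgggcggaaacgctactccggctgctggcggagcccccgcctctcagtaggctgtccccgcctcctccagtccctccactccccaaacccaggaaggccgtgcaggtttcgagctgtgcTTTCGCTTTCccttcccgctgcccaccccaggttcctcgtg
Psme2 lies nearby on the same chromosome, and the window of its first RefSeq start (chr14:55591052-55591351, minus strand) held no such match.
Psme2: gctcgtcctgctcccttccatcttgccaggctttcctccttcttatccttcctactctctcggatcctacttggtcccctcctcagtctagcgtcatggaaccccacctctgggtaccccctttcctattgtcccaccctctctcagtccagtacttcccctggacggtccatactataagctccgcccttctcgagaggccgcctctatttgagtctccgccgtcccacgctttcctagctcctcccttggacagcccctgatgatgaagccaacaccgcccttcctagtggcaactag
In Psmb6 (chr11:70525107-70525406, plus strand), the caspase-like catalytic subunit, capitals mark a match to TGACNNNGC, the core of the antioxidant response element, which begins 9 bases before the gene start (position -9).
Psmb6: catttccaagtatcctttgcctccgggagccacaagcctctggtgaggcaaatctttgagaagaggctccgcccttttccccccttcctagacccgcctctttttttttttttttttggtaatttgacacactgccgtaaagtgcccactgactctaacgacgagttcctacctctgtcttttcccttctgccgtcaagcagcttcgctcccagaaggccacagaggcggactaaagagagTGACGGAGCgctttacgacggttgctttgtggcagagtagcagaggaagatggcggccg
RefSeq promoters were found for 33 of the 40 members, 36 promoters in all, and both strands were searched. TGACNNNGC occurred in 6 of these 36 (16.7%), at Psmb5, Psmb6, Psmc6, Psmd9, Psmd12 and Psme4, against 12.4% of all 32851 mouse promoters. The interferon-stimulated core occurred in 4 of 36 (11.1%), at Psmb3, Psmd4, Psmd9 and Psme1, against 3.44% of all promoters. The GC box GGGCGG occurred in 22 of 36 (61.1%), against 35.7% of all. A match describes these letters only, and a window without one says nothing about the factor.

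The libraries held 14860759 (TG 1), 14158440 (TG 2), 15498935 (WT 1) and 16762713 (WT 2) counted reads. Levels are given as CPM, read counts relative to the library total after scaling by trimmed means, and as CPM per kilobase of exonic length where genes are compared with each other. The Y-linked gene Ddx3y was counted in both male libraries and in neither female library. TG 2 and WT 1 stood apart from TG 1 and WT 2 in immune transcripts, a split that follows neither genotype nor sex. The 5 leukocyte markers, Ptprc among them, summed to 37.0 CPM in TG 1 and 156.7 CPM in TG 2, against 193 CPM in WT 1 and 37.0 CPM in WT 2. The 5 macrophage markers in the table, Csf1r among them, summed to 107.1 and 622.5 CPM in TG 1 and TG 2, against 749.2 and 110.8 CPM in WT 1 and WT 2. The 5 interferon-response genes summed to 113.7 and 416 CPM in TG 1 and TG 2, against 667.3 and 120 CPM in WT 1 and WT 2. Of the 4 atrial markers 2 had enough counts to test, and the 4 summed to 1557 and 4229 CPM in TG 1 and TG 2, against 3708 and 1222 CPM in WT 1 and WT 2. The 6 cardiomyocyte markers summed to 67283 and 52463 CPM in TG 1 and TG 2, against 49203 and 59040 CPM in WT 1 and WT 2. Each sum is weighted toward the most abundant genes of its list. In bulk tissue, fewer cells of a type and less RNA per cell cannot be told apart.

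Every member except Psmb11 had counts in all 4 ventricles, and the levels of most varied little between libraries. Together the 40 members summed to 3656 CPM in TG 1 and 3624 CPM in TG 2, against 3835 CPM in WT 1 and 3462 CPM in WT 2, so the WT libraries spanned both TG sums. The coefficient of variation (CV, the SD over the mean) was taken across the 4 libraries. Its median was 8.27% over the 39 members that passed the filter on low counts, beside 14.4% over all 14189 genes that passed. The CV includes counting error, which falls as counts rise, and the members were not compared with genes of like level. The class medians of the CV were 4.92% for the base, 7.33% for the beta ring, 9.37% for the lid, 9.51% for the assembly chaperones, 9.70% for the alpha ring and 17.4% for the activators. The steadiest member was the nuclear activator Psme3 at 2.00%, and the most variable was Psme2 at 35.7%. Psma8, the testis form of an alpha subunit, passed the filter with only 6 and 13 counts in TG 1 and TG 2, against 14 and 9 counts in WT 1 and WT 2, and lay at 0.272 CPM per kilobase. Psmb11, the thymus form of the chymotrypsin-like subunit, had 0 counts in every library, which allows up to 0.182 to 0.213 CPM (3 counts, counting error only).

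**Figure D1:**
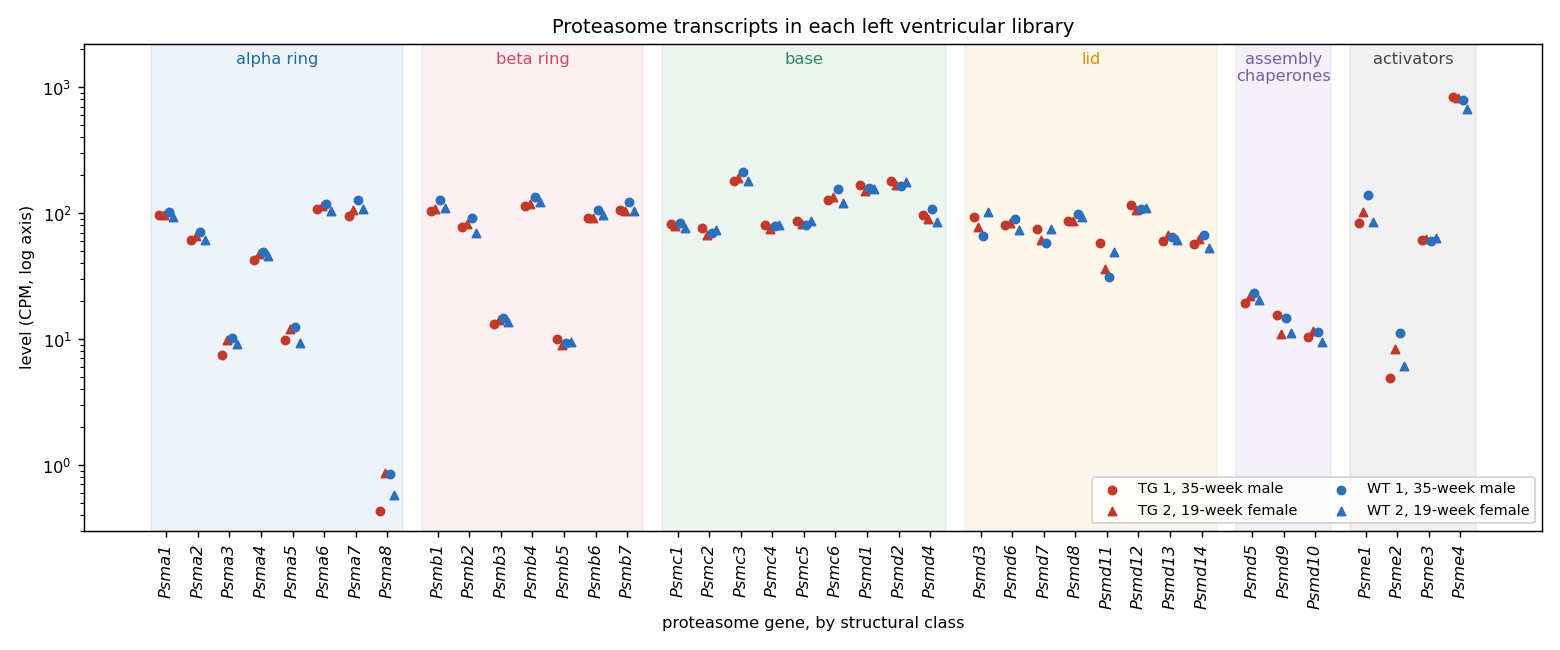
Level of each proteasome gene in each library (CPM, log axis), grouped by structural class, with TG in red and WT in blue, circles for the 35-week males and triangles for the 19-week females. The 4 points of most genes lie close together, with a median ratio of highest to lowest library of 1.2, while Psmd11, Psme1 and Psme2 spread more, and Psmb11, at 0 counts, is left out.

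Members of the same complex were counted at very different levels per kilobase, although each assembled particle holds its subunits in fixed proportion. In the alpha ring, mean levels ran to 89.8 CPM per kilobase for Psma6, with a class median of 18.5. In the beta ring they ran from 6.05 for Psmb3 to 66.6 for Psmb2, with a median of 31.8. In the base, the ATPase Psmc3 was highest at 72.8 and the ATPase Psmc2 lowest at 14.2, with a median of 38.4 CPM per kilobase. In the lid, the scaffold subunit Psmd12 was highest at 41.3 and the scaffold subunit Psmd11 lowest at 6.80, with a median of 25.1. The assembly chaperones, which guide base formation and leave the finished particle, were lower, with Psmd9 at 1.8, Psmd5 at 2.94 and Psmd10 at 7.27 CPM per kilobase. Taking the longest annotated transcript as the length in place of all exons moved the class medians to 30.8 for the alpha ring, 56.7 for the beta ring, 50.6 for the base, 40.3 for the lid and 4.95 for the chaperones. The highest beta gene was then Psmb4, the highest lid gene Psmd6 and the lowest chaperone Psmd5, so the order of single genes depends on the length used.

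The highest level of any member, per kilobase of exons or of the longest transcript, belonged to Psme4, the gene for PA200, an activator that opens the core to histones and peptides. It averaged 93.0 CPM per kilobase, next to Psma6 at 89.8, and the 4 libraries of these neighbours overlapped, from 79.7 to 99.4 for Psme4 and from 84.5 to 96.1 for Psma6. The other activators averaged 46.1 CPM per kilobase for Psme1, 21.0 for Psme3 and 4.30 for Psme2. Psme1 and Psme2 encode the alpha and beta chains of the same PA28 ring, and much of the sequence of Psme2 is shared with Psme2b, which is annotated as protein-coding and had more counts than Psme2 in every library.

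The lowest levels in the core fell largely on members whose sequence is repeated elsewhere. The 3 core members with at least 50% shared windows, Psma5, Psmb3 and Psmb5, had a median of 8.27 CPM per kilobase and a range of 6.05 to 10.5. The 11 other core members, leaving out the testis and thymus forms, had a median of 32.8 and a range of 2.34 to 89.8, with Psma3, 22% shared, at the low end. Psma3 had 105 and 147 counts in TG 1 and TG 2, against 166 and 142 in WT 1 and WT 2. Its pseudogene Gm13835 on chromosome 6, identical to it over 665 aligned coding bases, had 319 and 362 counts in TG 1 and TG 2, against 439 and 373 in WT 1 and WT 2. The copy thus had more counts than the gene in each of the 4 libraries. Likewise Psme2 had 69 and 125 counts in TG 1 and TG 2, against 182 and 95 in WT 1 and WT 2, while Psme2b had 245 and 465 counts in TG 1 and TG 2, against 562 and 274 in WT 1 and WT 2. For Psma5, at a mean of 10.9 CPM, the copies Gm8394 and Gm12989 had means of 8.60 and 7.55 CPM. The sources used here do not say how the counting treated reads that align to more than 1 locus, so the levels of these members are uncertain, and the part of shared sequence in them was not tested.

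**Figure D2:**
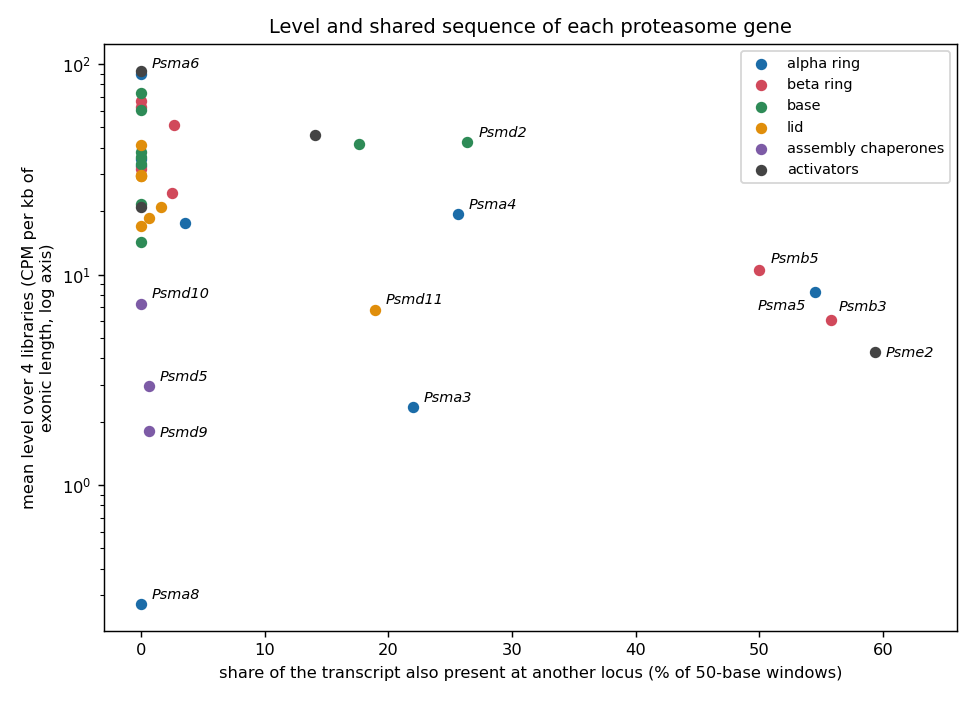
Mean level of each tested member over the 4 libraries (CPM per kilobase of exonic length, log axis) against the share of its 50-base transcript windows that also occur at another annotated locus (%), coloured by class. Psmb5, Psma5, Psmb3 and Psme2, with 50% to 59.3% of windows shared, lie between 4.30 and 10.5 CPM per kilobase, and the members without shared windows run from 0.272 (Psma8) to 93.0 (Psme4).

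A further limit is overlap with genes on the opposite strand, found for 9 members. It reached 25.5% of the exonic bases of Psmd9, 11.8% of Psmb7 (with Nek6) and 10.1% of Psmd13 (with Sirt3). On the same strand, the exons of Psmb5 overlapped Mir686 over 12.1% of their bases and those of Psmd1 overlapped Gm21972 over 4.14%. The libraries were stranded, but the sources used here do not give the strand setting of the counting.

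The first comparison asked whether the transgene changed the proteasome. By the quasi-likelihood test of edgeR, with p-values adjusted over all genes (Benjamini-Hochberg) and a threshold of 0.05, 0 of 39 members differed between TG and WT, and 0 of all 14189 genes did (0% called). At an unadjusted p below 0.05, edgeR picked 99 genes (0.698%), none of them a member. DESeq2 called 3 genes (0.0211%), again none of them a member. The fitted log2 fold changes of the members, TG over WT, had a median of -0.02 and ran from -0.38 (Psme2) to 0.22 (Psmd11), beside a median of -0.01 over all genes tested. There were 16 members with a positive value and 23 with a negative one. The class medians were 0.03 for the chaperones, 0.02 for the lid, 0.01 for the base, -0.07 for the alpha ring, -0.11 for the beta ring and -0.14 for the activators, and that of the base was -0.01 with upper-quartile scaling.

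The intervals say how large a difference these 4 mice leave possible. The 95% interval of the TG to WT fold change stayed within 2-fold in either direction for 36 of 39 members, the exceptions being Psma8, Psmd11 and Psme2. It stayed within 1.5-fold for 29 members and within 1.2-fold for 0. In the median the interval reached 0.41 on the log2 scale to either side.

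**Figure D3:**
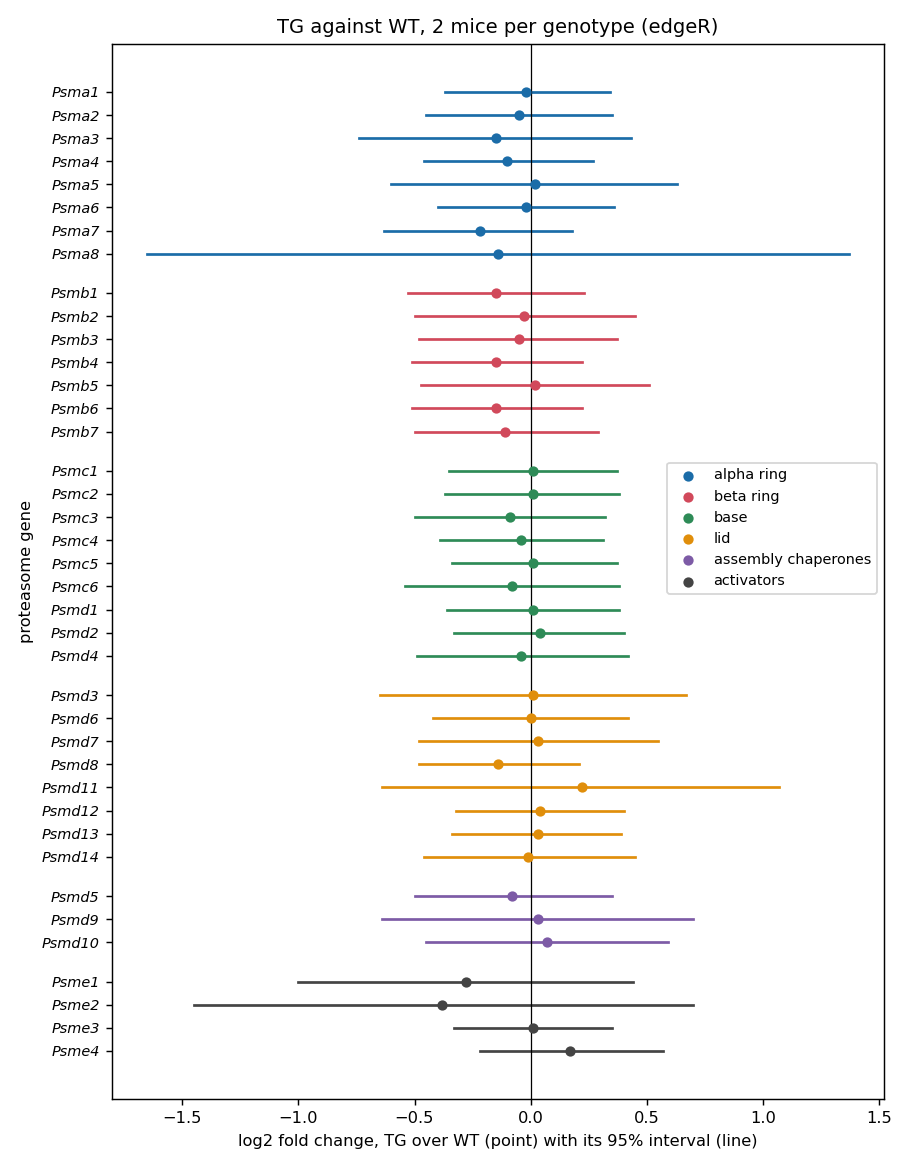
Fitted log2 fold change of each tested member, TG over WT (point), with its 95% interval (line), coloured by class, from 2 mice per genotype. Every interval includes 0, and those of Psma8, Psmd11 and Psme2 reach beyond 1.00 in size.

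Few members had TG and WT levels that did not overlap. The level of Psme4 was 833 CPM in TG 1 and 819 CPM in TG 2, against 796 CPM in WT 1 and 668 CPM in WT 2. Both TG mice lay above both WT mice, with a log2 fold change of 0.17 (SE 0.15; edgeR adjusted p = 1.00), which was 0.06 without WT 2 and 0.31 without WT 1. It was the only member so placed, against 10.3% of all genes tested with both TG libraries above both WT libraries. There were 5 members with both TG libraries below both WT libraries, against 10.7% of all genes tested: Psma7, Psmb1, Psmb4, Psmb6 and Psmd8. Psma7, an alpha-ring subunit, had 95 CPM in TG 1 and 105 CPM in TG 2, against 126 CPM in WT 1 and 107 CPM in WT 2. Its log2 fold change of -0.22 (SE 0.16; edgeR adjusted p = 1.00) was the lowest of the 5, at -0.11 without WT 1, and TG 2 and WT 2 differed little. Psmb4, a structural beta subunit, had 114 and 117 CPM in TG 1 and TG 2, against 134 and 122 CPM in WT 1 and WT 2, a log2 fold change of -0.15 (SE 0.14; edgeR adjusted p = 1.00), or -0.08 without WT 1.

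The constitutive catalytic sites were carried at steady levels. Psmb5, the chymotrypsin-like subunit, had 10 and 8.90 CPM in TG 1 and TG 2, against 9.30 and 9.40 CPM in WT 1 and WT 2, a log2 fold change of 0.02 (95% interval -0.47 to 0.51). Psmb6, the caspase-like subunit, had 91.8 and 90.6 CPM in TG 1 and TG 2, against 106 and 95.8 CPM in WT 1 and WT 2, a log2 fold change of -0.15 (95% interval -0.51 to 0.22), or -0.07 without WT 1. Psmb7, the trypsin-like subunit, had 105 and 104 CPM in TG 1 and TG 2, against 122 and 104 CPM in WT 1 and WT 2, a log2 fold change of -0.11 (95% interval -0.50 to 0.29). For Psmb5 and Psmb7 the genotypes overlapped, and for Psmb6 both WT values were the higher ones, though by less than the fit could tell from the spread.

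The second labelled difference is that between the 35-week males and the 19-week females. In the same test 0 of 39 members were called, beside 4 of 14189 genes (0.0282%). At an unadjusted p below 0.05 edgeR picked 513 genes (3.62%) and 1 member. That member was Psmd9, the base assembly chaperone also known as p27, with 15.4 and 14.7 CPM in the males TG 1 and WT 1, against 11 and 11.1 CPM in the females TG 2 and WT 2. The log2 fold change, males over females, was 0.45, with an unadjusted p from the edgeR fit of 0.028 and an adjusted p of 1.00. The members as a whole had a median log2 fold change of 0.05 and ran from -0.18 to 0.45, with 31 positive and 8 negative values. Over all genes tested the median was 0.01, and 7359 of 14189 values were positive.

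The third comparison set the pairs against each other, because genotype and the immune split cross in these libraries. The split was also sized over all 14189 genes tested, immune ones included. It held 63.3% of the variance between the libraries, against 12.8% for genotype and 23.9% for sex and age. Genes with large differences weigh most in that share. Counted by gene, 22.9% had TG 1 and WT 2 above TG 2 and WT 1, and 24.6% had them below. For genotype, 10.3% had both TG libraries above both WT libraries, and 10.7% had them below. How far the split reaches beyond immune transcripts was not tested. For each gene the comparison gives the log2 ratio of TG over WT in males minus that in females. With 4 libraries it equals a test of TG 1 and WT 2 against TG 2 and WT 1. It reads as a difference of ratios only where genotype and pair add nothing of their own. Where a library is left out below, 1 of the ratios is missing. The value is then 2 times the log2 fold change between the libraries left in these groups. In this test 0 of 39 members passed the threshold, beside 386 of 14189 genes (2.72%), of which 50 were higher (0.352%) and 336 lower (2.37%). The members' smallest adjusted p was 0.0727, for Psmd11. At an unadjusted p below 0.05, edgeR picked 5 members, beside 16.2% of all genes. These were Psmd3, Psmd7 and Psmd11 with positive values, as for 7.46% of all genes, and Psme1 and Psme2 with negative ones, as for 8.77% of all genes.

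The PA28 genes Psme1 and Psme2 had their lowest level in TG 1 and their highest in WT 1. Psme1 had 82.6 and 101 CPM in TG 1 and TG 2, against 138 and 85.0 CPM in WT 1 and WT 2. The log2 TG to WT ratio was -0.74 in the males and 0.25 in the females, and the difference was -1.03 (SE 0.33; edgeR adjusted p = 0.21). Without WT 1 the fitted value was -0.55, from TG 1 and WT 2 against TG 2. Psme2 had 4.91 and 8.30 CPM in TG 1 and TG 2, against 11.1 and 6.08 CPM in WT 1 and WT 2. Its log2 ratio was -1.15 in the males and 0.44 in the females, a difference of -1.63 (SE 0.46; edgeR adjusted p = 0.16). For both genes TG 2 and WT 1, the libraries with more leukocyte and interferon-response transcripts, lay above TG 1 and WT 2. In the same test 4 of the 5 leukocyte markers, 3 of the 5 interferon-response genes and 2 of the 5 macrophage markers were called. That test was chosen with this split of the libraries already known, so these calls are not an independent result. The part of immune cells or of interferon signalling in these levels was not tested. Psme3, the nuclear PA28 gamma, had 61.6 and 62.4 CPM in TG 1 and TG 2, against 60.3 and 63.1 CPM in WT 1 and WT 2, a difference between the pairs of 0.05 (SE 0.20; edgeR adjusted p = 0.94). For Psme4 it was -0.21 (SE 0.28; edgeR adjusted p = 0.78).

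The immunoproteasome subunits, left out of the set by its rule, give the scale of the split. Psmb8 had 10.5 and 66.8 CPM in TG 1 and TG 2, against 98.7 and 14.0 CPM in WT 1 and WT 2, with a difference between the pairs of -5.50 on the log2 scale (SE 0.48; edgeR adjusted p = 0.00981). Psmb9 had 6.76 and 30.3 CPM in TG 1 and TG 2, against 39.9 and 8 CPM in WT 1 and WT 2, a difference of -4.50 (SE 0.40; edgeR adjusted p = 0.00981). Psmb10 had 40 and 92.8 CPM in TG 1 and TG 2, against 153 and 37.5 CPM in WT 1 and WT 2, a difference of -3.33 (SE 0.48; edgeR adjusted p = 0.0296). All 3 were called lower, and TG against WT none of them was called, with log2 fold changes of -0.54, -0.37 and -0.52 for Psmb8, Psmb9 and Psmb10. Psmb8 overlaps Gm20496 and Psmb9 overlaps Tap1 on the opposite strand, over 14.7% and 5.79% of their exonic bases. Without WT 1, the calls of Psmb8 and Psmb9 were lost, with fitted values of -4.89 and -4.08 from TG 1 and WT 2 against TG 2. The call of Psmb10 was lost without TG 1 (adjusted p = 0.0571), without WT 1 (adjusted p = 0.0921) or without WT 2 (adjusted p = 0.0689).

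Set beside the constitutive subunit of the same active site, the immunoproteasome form was relatively more abundant in TG 2 and WT 1. The ratio of Psmb9 to Psmb6 per kilobase was 0.0376 and 0.171 in TG 1 and TG 2, against 0.192 and 0.0427 in WT 1 and WT 2. The ratio of Psmb10 to Psmb7 was 0.765 and 1.79 in TG 1 and TG 2, against 2.53 and 0.726 in WT 1 and WT 2. The site pair of Psmb8 and Psmb5 is not read this way, because its shared sequence leaves the level of Psmb5 uncertain. The fitted differences between the pairs were -0.14 (SE 0.25) for Psmb6, -0.23 (SE 0.24) for Psmb7 and 0.19 (SE 0.33) for Psmb5, none of them called, at edgeR adjusted p = 0.85, adjusted p = 0.72 and adjusted p = 0.84.

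**Figure D4:**
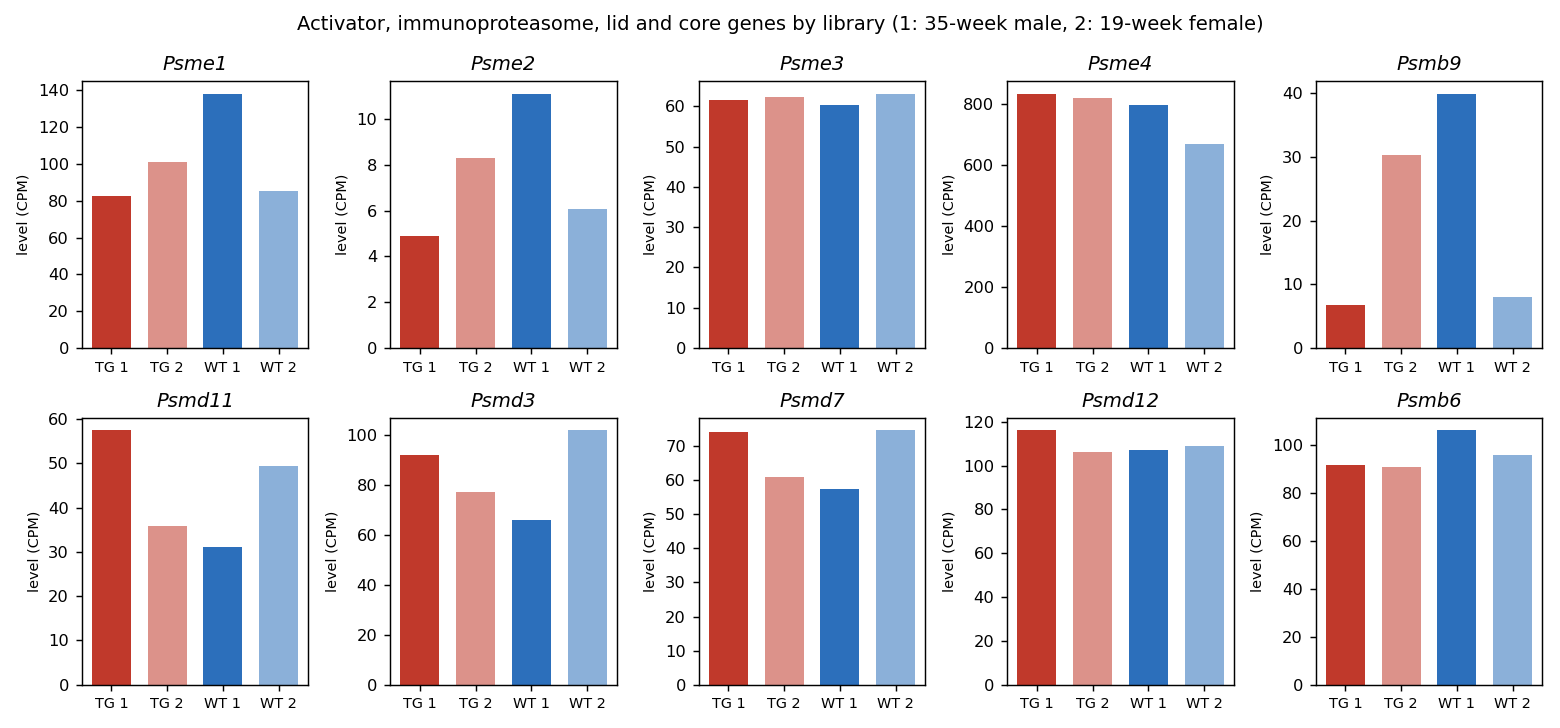
Levels by library (CPM, bars from 0, 1 library each) of 4 activators, the immunoproteasome subunit Psmb9, the lid genes Psmd11, Psmd3, Psmd7 and Psmd12 and the catalytic subunit Psmb6, with TG in red and WT in blue, and the 35-week males darker than the 19-week females. Psme1, Psme2 and Psmb9 are higher in TG 2 and WT 1, Psmd11, Psmd3 and Psmd7 are higher in TG 1 and WT 2, and Psme3 and Psmd12 are nearly level.

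The 3 of 39 members with positive values and an unadjusted p below 0.05 are lid genes, a share near the 7.46% of all genes so picked. Of the 8 lid genes, 4 had positive values and 4 negative ones. Psmd11, one of the 3, had 57.4 and 35.9 CPM in TG 1 and TG 2, against 31.1 and 49.3 CPM in WT 1 and WT 2. Its difference between the pairs was 1.34 (SE 0.28), which missed the threshold in edgeR at an adjusted p of 0.0727. DESeq2 called it, with a difference of 1.35 and an adjusted p of 0.0186, among 703 genes (4.95%), and so did edgeR without a filter on low counts, with 1.33 and an adjusted p of 0.0179, among 908 of 21605 genes (4.20%). The processed pseudogene Gm14048 on chromosome 2, which shares 14.0% of the windows of Psmd11, had 16.3 and 10.6 CPM in TG 1 and TG 2, against 9.18 and 14.3 CPM in WT 1 and WT 2. Its difference was 1.26 (SE 0.34; edgeR adjusted p = 0.14), in the direction of the parent gene, and whether its reads came from Psmd11 was not tested. Psmd3, a scaffold subunit of the lid, had 92.3 and 77.2 CPM in TG 1 and TG 2, against 66.2 and 102 CPM in WT 1 and WT 2, a difference of 0.88 (SE 0.26; edgeR adjusted p = 0.17). Psmd7, which pairs with the deubiquitinase Psmd14, had 74.0 and 60.8 CPM in TG 1 and TG 2, against 57.3 and 74.5 CPM in WT 1 and WT 2, a difference of 0.66 (SE 0.21; edgeR adjusted p = 0.20). Psmd14 itself had 56.4 and 61.8 CPM in TG 1 and TG 2, against 66.3 and 52.3 CPM in WT 1 and WT 2, a difference of -0.47 (SE 0.22; edgeR adjusted p = 0.37). Partners within the lid thus had values of opposite sign, none of them past the threshold in edgeR.

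By class, the difference between the pairs had a median of -0.62 for the activators, -0.38 for the chaperones, -0.36 for the alpha ring, -0.22 for the beta ring, 0.04 for the lid and 0.12 for the base, beside 0.01 over all genes tested. The value for the lid was -0.01 with upper-quartile scaling. All 8 alpha-ring genes had negative values, from -0.10 (Psma1) to -1.51 (Psma8), and 0 of them passed the threshold, the smallest adjusted p being 0.34. Without WT 1 the median of the alpha ring was -0.22 and that of the beta ring 0.00. In levels, 17 members had both TG 2 and WT 1 above TG 1 and WT 2, against 24.6% of all genes tested, 6 of them in the alpha ring. A further 9 members had both below, against 22.9% of all genes, 4 in the base, 4 in the lid and 1 in the beta ring. Over all members the log2 TG to WT ratio had a median of -0.16 in the males and 0.03 in the females. It had the same sign in both pairs for 6 members, and for 5010 of the 14189 genes tested.

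**Figure D5:**
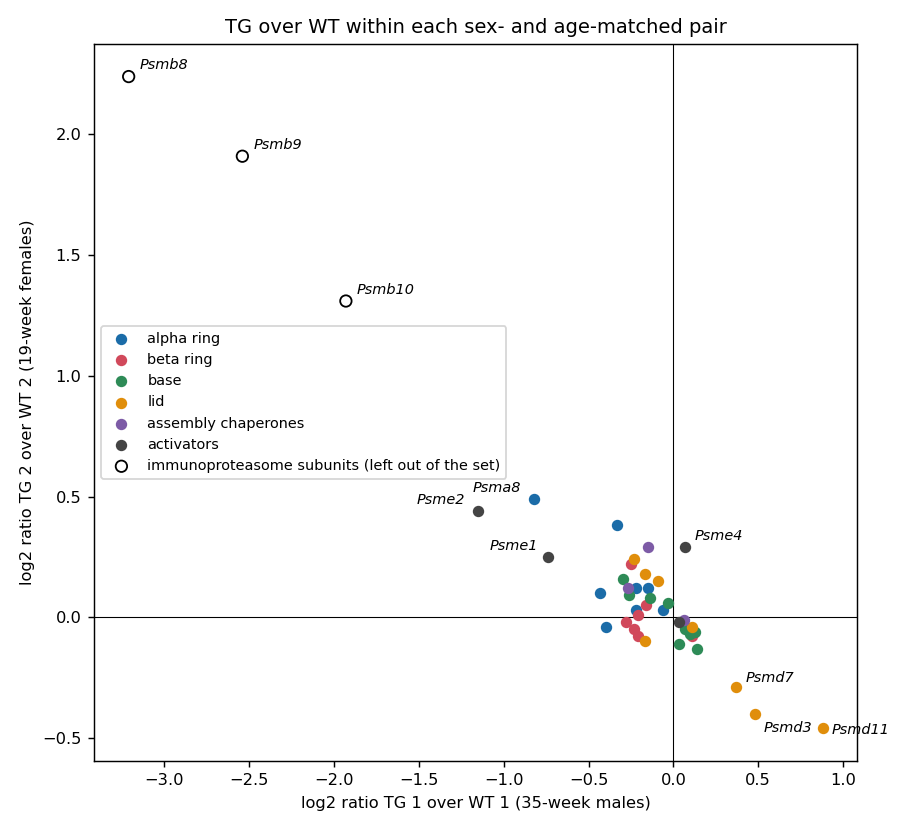
Log2 TG to WT ratio within the 35-week males (horizontal) and within the 19-week females (vertical), 1 point per gene, coloured by class, with the left-out immunoproteasome subunits as open circles. Most members lie near the origin, Psme1 and Psme2 lie toward the immunoproteasome subunits at upper left, and Psmd3, Psmd7 and Psmd11 lie at lower right.

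The wider pathway was read from lists of genes that assemble, bind, regulate or feed the proteasome. For TG against WT, 0 genes were called in any of these lists. Of the 5 factors of 20S assembly and maturation, 1 had a positive and 4 a negative log2 fold change, and Psmg2, a chaperone of the alpha ring, had 27.4 and 27.4 CPM in TG 1 and TG 2, against 30.8 and 29.7 CPM in WT 1 and WT 2. Of 14 proteasome-bound factors, 9 were positive and 5 negative. The shuttle factor Ubqln1 had 78.7 and 71.0 CPM in TG 1 and TG 2, against 72.7 and 48.7 CPM in WT 1 and WT 2. Of the 10 genes of the NRF1 axis in the table, 7 were positive and 3 negative, and 10 of 12 genes of ubiquitin and its conjugation were positive. Over all genes tested, 6743 of 14189 were positive. The log2 TG to WT ratio had the same sign in both pairs for 0 of these 10 genes and 2 of these 12. The median of the log2 fold changes was 0.04 for the NRF1 axis and 0.06 for ubiquitin and conjugation, and the 10 autophagy genes had a median of 0.02.

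Muscle ubiquitin ligases mark proteins of the sarcomere for the proteasome, and 4 of the 9 had a positive TG to WT fold change and 5 a negative one. The cochaperone ligase Stub1 had 66.8 and 69.1 CPM in TG 1 and TG 2, against 74.5 and 85.1 CPM in WT 1 and WT 2, a log2 fold change of -0.23 (SE 0.15; edgeR adjusted p = 1.00). Both TG mice lay below both WT mice, as for 10.7% of all genes tested, and 2 of the 9 ligases had both above. Between males and females, Trim63, the gene for MuRF1, had 217 and 259 CPM in the males TG 1 and WT 1, against 150 and 141 CPM in the females TG 2 and WT 2, a log2 fold change of 0.71 (SE 0.15; edgeR adjusted p = 1.00). Fbxo32, the gene for atrogin-1, had 482 and 385 CPM in the males TG 1 and WT 1, against 305 and 291 CPM in the females TG 2 and WT 2, a log2 fold change of 0.54 (SE 0.16; edgeR adjusted p = 1.00). Neither Trim63 nor Fbxo32 passed the adjustment over all genes, and sex and age cannot be told apart.

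Between the pairs, 1 of the 14 proteasome-bound factors was called, beside the 2.72% of all genes called in either direction and the 0.352% called higher. Ubr4, a large ubiquitin ligase of the N-degron pathway, had 526 and 293 CPM in TG 1 and TG 2, against 262 and 451 CPM in WT 1 and WT 2, a difference of 1.63 (SE 0.26; edgeR adjusted p = 0.0388). That call was lost without TG 1 (adjusted p = 0.0628), without TG 2 (adjusted p = 0.16) or without WT 1 (adjusted p = 0.36). Its levels were high in TG 1 and WT 2, as for Psmd11. Pomp, which matures the 20S core, had 74.1 and 89.1 CPM in TG 1 and TG 2, against 111 and 71.3 CPM in WT 1 and WT 2, a difference of -0.93 (SE 0.28; edgeR adjusted p = 0.19). Psmg4, an assembly chaperone, had 5.41 and 7.37 CPM in TG 1 and TG 2, against 9.73 and 5.18 CPM in WT 1 and WT 2, a difference of -1.39 (SE 0.43; edgeR adjusted p = 0.20). Psme2b, the copy of Psme2, was called in this comparison, with 17.4 and 30.9 CPM in TG 1 and TG 2, against 34.2 and 17.5 CPM in WT 1 and WT 2, and a difference of -1.79 (SE 0.27; edgeR adjusted p = 0.0319). Leaving out any single library lost that call, with adjusted p from 0.0536 to 0.31. Long transcripts tended to have more positive values in these libraries. Spearman's rho between the longest transcript and the fitted value was taken across genes, which are not independent replicates. For the difference between the pairs it was 0.26 over the 39 members and 0.30 over 12827 protein-coding genes. For TG against WT it was 0.21 over the 39 members and 0.27 over the same protein-coding genes. Psme4 had the longest transcript of the members, at 6491 bases. The part of transcript length in the values of single members was not tested.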

How the data were processed

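RNA of 4 left ventricular free walls was sequenced, each mouse giving 1 library. Per the labels' protocols, libraries came from total RNA with a stranded kit. The submitters' processing notes name STAR 2.3.0 and HTSeq 0.6.1, build mm10, DESeq, CASAVA 1.8.2 and FastQC 0.10.0, without their settings. The authors deposited raw read counts per gene, and a normalised signal equal to those counts divided by 1 factor per library (0.917 for TG 1, 0.987 for TG 2, 1.08 for WT 1, 1.03 for WT 2), which was not used in tests. Library totals stand in the report.

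The tests ran in edgeR 4.0.16 under R 4.3.3 (TMM factors 0.947, 1.06, 1.06 and 0.934 for TG 1, TG 2, WT 1 and WT 2), keeping 14189 genes by filterByExpr with a minimum count of 10. The quasi-likelihood test had 1 term per comparison, with Benjamini-Hochberg adjustment over all genes. Nothing says that a mouse was sampled more than once. Each combination of genotype with sex and age held 1 mouse. The spread behind each p-value therefore includes the differences left out of that fit, and does not measure the spread among like mice. Log2 ratios within a pair used a prior count of 2. Alternatives were DESeq2 1.42.0, limma-voom (limma 3.58.1), other scaling factors, no filter, blocks and leaving out each library. The scripts were tested on simulated data. Positions, lengths and shared windows came from GENCODE vM21 (99.2% of tested genes matched). Members described singly were the activators, the catalytic subunits, those past a threshold or of smallest p with the same sign in both pairs, and the extremes in level per class; Psmd3, Psmd7, Psmd9, Psmd11, Psmd14, Psme2b and the pseudogenes were singled out after their values were seen. The members, lists and tests were chosen with earlier results of these data known. 1 gene of the lists is not reported here by name.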

Additional observations from a re-analysis of the deposited data

Results flagged for a closer look

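In edgeR's test of the difference between the pairs, 386 of the 14189 genes (2.72%) had an adjusted p below 0.05, and among them were 5 of the proteasome and pathway genes described in the report, none of them a constitutive member. The differences were -5.50 for Psmb8, -4.50 for Psmb9, -3.33 for Psmb10 and -1.79 for Psme2b, and in each of these TG 1 lay below WT 1 while TG 2 lay above WT 2. For Ubr4 the difference was 1.63, with TG 1 above WT 1 and TG 2 below WT 2. The same split of the libraries ran through the leukocyte and interferon-response transcripts, whose sums are given in the report, and their part in these values was not tested.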

How the results depend on the processing

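The number of members called was 0 for TG against WT and for males against females under every alternative run; for the difference between the pairs it was 1 (Psmd11) with DESeq2 and 1 without a filter, and 0 otherwise. Over all genes, TG against WT gave 0 calls in edgeR, 3 in DESeq2 and 0 to 6 on leaving out single libraries, with 6 without WT 1. Males against females gave 4, then 34 in DESeq2, 7 without a filter, 0 with genotype as a block and 0 to 7 on leaving out libraries (7 without TG 2, 0 without any other). The difference between the pairs gave 386, then 703 in DESeq2, 908 without a filter and 40 to 347 on leaving out libraries, with 40 without WT 1 and 109 without TG 2. The cause of these changes was not tested. With the replicate number as a block, TG against WT gave 0 genes and 0 members in edgeR and in DESeq2; the labels do not say that the numbers pair the libraries, and same-numbered deviations correlated at -0.449. With the crossed pairing as a block, added after seeing the data, edgeR gave 0 genes and 0 members.

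The sign of Psme3 reversed with upper-quartile factors, to -0.01 for TG against WT and -0.0016 for the difference between the pairs. On leaving out single libraries, signs also reversed in TG against WT for Psme1 (-0.59 to 0.11), Psme2 (-0.80 to 0.12), Psme3 (-0.03 to 0.04), Psmb5 (-0.07 to 0.10), Psmb7 (-0.21 to 0.01), Psmb8 (-2.42 to 1.47), Psmb9 (-1.82 to 1.22) and Psmb10 (-1.25 to 0.83), and in the difference between the pairs for Psme3 (-0.0025 to 0.10), Psme4 (-0.54 to 0.09), Psmb6 (-0.35 to 0.10) and Psmb7 (-0.44 to 0.0023). Without a sign reversal, values ranged from -1.44 to -0.55 for the Psme1 difference between the pairs, and in TG against WT from 0.06 to 0.31 for Psme4, -0.33 to -0.11 for Psma7, -0.21 to -0.08 for Psmb4 and -0.22 to -0.07 for Psmb6. When 1 library is left out, the lone mouse of a group is assumed to vary like the others. For the difference between the pairs, 1 ratio is then missing. The value is 2 times the log2 fold change between the groups left. With 2 mice per genotype, differences under 1.2-fold could not be bounded for any member.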
